A study of Mus musculus with 12 samples.

Results

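Haemogenic endothelium kept without doxycycline (Dox) was compared between 12 h and 6 h, in 4 of the 12 RNA sequencing libraries of the series: 2 replicate libraries of untreated cells at each hour. All 41128 genes of the deposited count table were read, 15347 had enough counts to be tested and 25781 did not, and every change is given as 12 h over 6 h. The cells came from mouse embryonic stem cells of the iSox7 line, a derivative of Ainv18 with a Dox-inducible Sox7, and the untreated cells carry that transgene too. Cells that carry FLK1, the VEGF receptor encoded by Kdr, were isolated at day 3.5 from differentiating embryoid bodies and spent 48 h in liquid blast medium, which holds VEGF and IL6. Hours count from the point at which 1 µg/ml Dox was added to the treated cultures, so the 6 h cells had 6 h more of the same culture and the 12 h cells 12 h more. The treated cells of 6 and 12 h (2 libraries each) and the untreated cells of 24 h (2 libraries) serve here only for comparison. The labels describe 1 cell line and do not say that the replicates came from different cultures, so the spread that the p-values measure is the one between these libraries and may be technical.

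Haemogenic endothelium is the endothelium from which blood cells emerge. In the endothelial-to-haematopoietic transition, a cell of the vessel wall loses its junctions, rounds up and starts to express blood genes. RUNX1 drives the transition and its targets GFI1 and GFI1B silence endothelial genes, while SOX7, a transcription factor of early endothelium, is normally switched off as blood forms. The untreated course is the one on which the effect of induced SOX7 is read.

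Total counts were 28444464 and 13485804 at 6 h and 13846438 and 33028607 at 12 h, so each hour had 1 deep and 1 shallow library, within the range of the series (13485804 to 35250074). Counts scaled to depth (CPM) below use the library size after TMM scaling, and the first value of each pair is replicate 1. Adjusted p-values are those of the quasi-likelihood test in edgeR, adjusted over the 15347 tested genes by Benjamini and Hochberg's method. The ± after a log2 fold change is its standard error (SE), and an adjusted p under 0.05 counted as a call. Coordinates are on GRCm38, as the deposited table gives them.

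Sox7 (ENSMUSG00000063060, chromosome 14, 63943674 to 63950732, plus strand) stood at 77.9 and 81.7 CPM at 6 h and 55.6 and 68.8 CPM at 12 h, a log2 fold change of -0.33 ± 0.07 (adjusted p = 0.0019). Both 12 h libraries lay below both 6 h libraries, and the call was lost without replicate 1 of 12 h (adjusted p = 0.065). The treated libraries of the same hours held 326 and 314 CPM at 6 h and 379 and 376 CPM at 12 h, far above every untreated library. Of the defining endothelial markers, Cdh5 stood at 645 and 649.6 CPM at 6 h and 529 and 581 CPM at 12 h, Pecam1 at 395 and 392 CPM at 6 h and 352 and 387 CPM at 12 h, Kdr at 581 and 588 CPM at 6 h and 485 and 551 CPM at 12 h and Tek at 293 and 299 CPM at 6 h and 222 and 245 CPM at 12 h. The defining blood markers were low apart from Itga2b, which encodes CD41 and stood at 61.2 and 61.96 CPM at 6 h and 61.5 and 54.7 CPM at 12 h. Ptprc, which encodes CD45, stood at 2.81 and 2.96 CPM at 6 h and 4.700 and 5.48 CPM at 12 h, and Spn, which encodes CD43, at 0.597 and 0.667 CPM at 6 h and 1.28 and 0.727 CPM at 12 h. The libraries thus held the endothelial markers of the label together with low Ptprc and Spn. Itga2b lay above the median of all tested genes at 6 h (22.0 CPM). Genes of smooth muscle and mesenchyme were present too, with a summed level over their list of 7962 and 8254 CPM at 6 h.

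At 12 h, 1145 of 15347 genes (7.46%) differed from 6 h: 674 were higher (4.39%) and 471 lower (3.07%). Every count of a gene list below stands against these shares. The changes were small. The median called rise was 1.34-fold and the median called fall 1.21-fold, 80 genes rose and 12 fell at least 2-fold, and the median log2 fold change of all tested genes was 0.0021. The genes that rose had a lower level at 6 h than those that fell, with median values of 4.10 and 25.5 RPKM (reads scaled for gene length and depth). In CPM, which is not scaled for length, those medians were 26.1 and 93.1. In all 1145 called genes the libraries of the 2 hours did not overlap, against 49.0% of all tested genes. A lack of overlap, where it is given for a called gene, therefore adds nothing to its call. With 1 of the 4 libraries left out in turn, 395 to 699 genes were called, fewest without replicate 1 of 6 h, and 189 higher and 73 lower calls were kept in all 4 of those fits. No called gene changed sign in any of the 14 alternative fits, but without overlap a left-out library can hardly turn a sign. The other fits used the same counts, so this is no independent check.

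**Figure D1:**
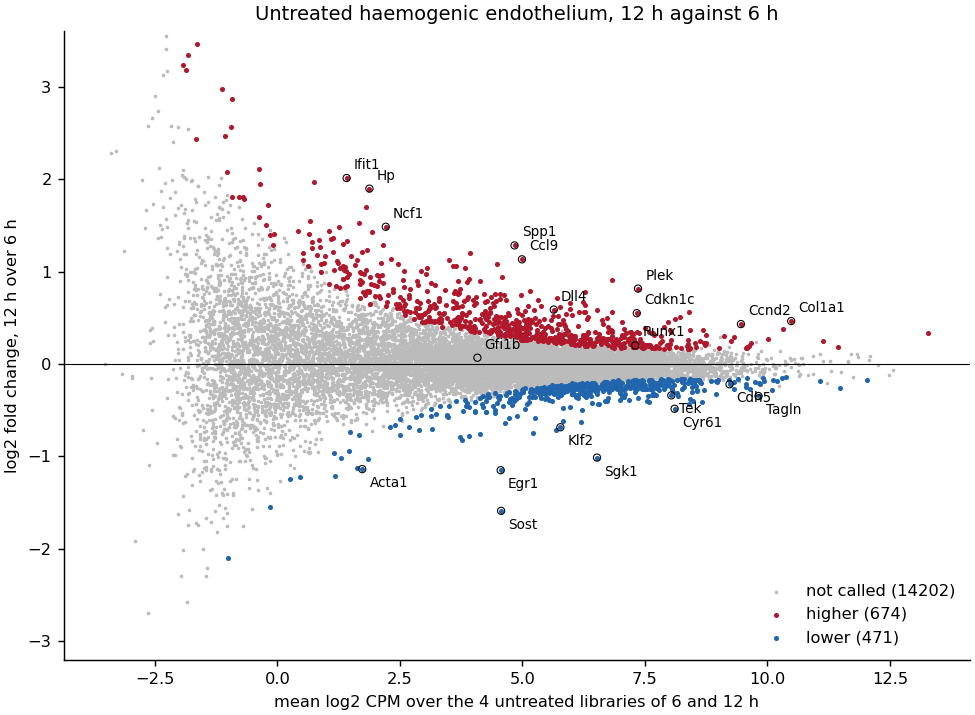
Log2 fold change of each tested gene from 6 to 12 h without Dox (vertical axis) against its mean log2 CPM over the 4 libraries (horizontal axis); red and blue points are the 674 higher and 471 lower genes, grey points were not called, and 3 genes lie outside the drawn range. Of the called genes, 80 rises and 12 falls were at least 2-fold.

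Genes of the interferon response made up the list with the most rises. They are induced when cells sense interferon or foreign nucleic acid, and bind or degrade viral RNA, modify proteins or relay the signal. Of 26 tested members 13 rose (50%) and 1 fell (3.85%), against 4.39% and 3.07% of all tested genes. The median log2 fold change of the members was 1.05. Ifnb1, which encodes interferon beta, had too few counts to be tested. Many promoters of such genes hold an interferon-stimulated response element, whose core was searched on both strands as GAAA, a gap of 2 bases of any kind and GAAA again, in the window from 250 bases before to 50 bases after the gene's start (RefSeq, GRCm38.p6). The core was present in 7 of the 11 risen members that have a window in the table, in 11 of the 19 tested members with a window, and in 3.53% of the 10387 tested genes with a window. The stretches before the start of 4 risen members that hold it follow, with every match within the stretch in capitals; the matches of Isg15 overlap.
Ifit1 (chr19:34640764-34640853, plus strand): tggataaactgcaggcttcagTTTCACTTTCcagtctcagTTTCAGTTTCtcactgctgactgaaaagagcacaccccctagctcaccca
Ifit3 (chr19:34583367-34583456, plus strand): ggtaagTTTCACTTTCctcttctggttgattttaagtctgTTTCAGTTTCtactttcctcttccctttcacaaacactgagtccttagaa
Isg15 (chr4:156200835-156200924, minus strand): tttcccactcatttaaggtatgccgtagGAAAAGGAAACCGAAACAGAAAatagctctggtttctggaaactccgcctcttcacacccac
Rsad2 (chr12:26456523-26456612, minus strand): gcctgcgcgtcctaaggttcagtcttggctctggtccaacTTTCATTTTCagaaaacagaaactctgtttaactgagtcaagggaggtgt

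Ifit1 (ENSMUSG00000034459, chromosome 19, 34640871 to 34650009, plus strand), which encodes a protein that binds foreign RNA caps, stood at 1.299 and 1.19 CPM at 6 h and 6.05 and 4.54 CPM at 12 h, from 37 and 16 reads at 6 h and 85 and 150 reads at 12 h. Its log2 fold change of 2.01 ± 0.23 (adjusted p = 8.8e-07) was the largest among genes at this level. Isg15, a ubiquitin-like protein, rose from 1.896 and 1.26 to 4.77 and 3.91 CPM (1.34 ± 0.24, adjusted p = 0.0005). Usp18, the protease that removes ISG15, rose from 0.948 and 0.593 to 3.49 and 3.12 CPM, a log2 fold change of 1.97 ± 0.31. In each of these genes both 12 h libraries were at least double both 6 h libraries.

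Sensors and effectors at a higher level had smaller fold changes. Ddx58, which encodes the RNA sensor RIG-I, stood at 7.23 and 6.37 CPM at 6 h and 12.5 and 12.5 CPM at 12 h, and Ifih1, which encodes the sensor MDA5, at 2.14 and 1.85 CPM at 6 h and 4.91 and 4.15 CPM at 12 h. Rsad2, which encodes viperin, rose from 10.6 and 9.19 to 16.9 and 17.1 CPM (0.76 ± 0.13, adjusted p = 0.00025). Stat2, a transducer of the interferon signal, rose from 29.8 and 29.1 to 37.7 and 34.2 CPM (0.28 ± 0.08, adjusted p = 0.036). Ifit2, Ifit3, Rtp4, Irf7, Xaf1 and Oasl2 were the other members called higher. Ifit3 stood at 1.72 and 1.63 CPM at 6 h and 3.56 and 3.48 CPM at 12 h and has a near-identical copy, so its counts are uncertain. Irf7 had 6 and 0 reads at 6 h and 22 and 30 reads at 12 h.

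Cxcl10, a chemokine gene that interferon also induces and whose promoter holds the same core, went the other way, from 3.86 and 2.74 to 1.78 and 1.64 CPM (-1.01 ± 0.26, adjusted p = 0.014). That call was lost without replicate 1 of 6 h, without replicate 2 of 12 h and with DESeq2. Leaving out each library in turn gave 8 to 12 members called higher, fewest without replicate 1 of 6 h. Macrophage genes, described next, were higher in the same libraries, and their part in the interferon result was not tested.

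Genes of macrophages and neutrophils rose in part, with 9 of 23 tested members higher (39.1%, against 4.39% of all tested genes) and 0 lower. Their median log2 fold change was 0.80. Hp, which encodes haptoglobin, the plasma protein that binds free haemoglobin, stood at 2.18 and 1.41 CPM at 6 h and 8.19 and 6.42 CPM at 12 h, a log2 fold change of 1.90 ± 0.21 (adjusted p = 6.7e-07). Ncf1, a subunit of the phagocyte oxidase, stood at 3.16 and 2.15 CPM at 6 h and 8.05 and 7.69 CPM at 12 h (1.48 ± 0.20). Mpo, the myeloperoxidase gene of early myeloid cells, rose from 15.6 and 14.1 to 23.6 and 20.4 CPM, and Ccr2, the receptor that guides monocytes, from 4.04 and 3.56 to 6.77 and 6.78 CPM. Fcgr3, Itgam, Cx3cr1, Cd14 and Emr1, which encodes F4/80, were the other members called. The summed level of the 23 members was 143 and 128 CPM at 6 h and 182 and 179 CPM at 12 h. The granule genes Elane, Ctsg and Lyz1 and the complement gene C1qa had too few counts to be tested. In bulk libraries, more cells of a type and more RNA per cell cannot be told apart. Leave-one-out fits called 3 to 6 of the 23 myeloid members, fewest without replicate 2 of 6 h.

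Chemokine genes of the same cells rose together with Spp1. Spp1 (ENSMUSG00000029304, chromosome 5, 104435118 to 104441050, plus strand), which encodes osteopontin, stood at 18.8 and 17.6 CPM at 6 h and 44.9 and 44.4 CPM at 12 h, a log2 fold change of 1.28 ± 0.08 (adjusted p = 2.7e-11). Ccl9 stood at 23.1 and 19.3 CPM at 6 h and 52.3 and 43.4 CPM at 12 h, Ccl6 at 9.17 and 5.93 CPM at 6 h and 17.7 and 17.05 CPM at 12 h and Ccl3 at 3.72 and 2.74 CPM at 6 h and 7.91 and 7.09 CPM at 12 h. All 3 encode chemokines of myeloid cells, and in each both 12 h libraries lay above both 6 h libraries, as in every gene called higher. Of the 21 tested NF-kB, cytokine and chemokine genes 6 rose, the others being Ccl4, Cxcl12 and Bcl3, and 2 fell. Those 2 were Nfkbiz, a nuclear regulator of NF-kB (13.9 and 13.3 to 9.12 and 9.21 CPM), and Vcam1, an adhesion molecule that leukocytes bind (20.2 and 21.05 to 16.02 and 16.2 CPM). The call of Vcam1 was lost in 7 of 14 alternatives and that of Cxcl12 in 3 of 14. Without replicate 1 of 6 h, 3 members of the list were called higher and 0 lower.

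Genes expressed across blood cells showed the same direction. Of 23 tested pan-haematopoietic surface and signalling genes, 9 rose and 0 fell, with a median log2 fold change of 0.43. Plek (ENSMUSG00000020120, chromosome 11, 16971206 to 17052381, minus strand), which encodes pleckstrin, a signalling protein of platelets and leukocytes, stood at 125 and 123 CPM at 6 h and 221 and 215 CPM at 12 h. Its log2 fold change was 0.82 ± 0.06 (adjusted p = 5.4e-10), and it was called in all 14 alternatives. Coro1a, an actin regulator of leukocytes, stood at 3.41 and 4.08 CPM at 6 h and 7.83 and 7.69 CPM at 12 h (1.08 ± 0.17). Inpp5d, which encodes the lipid phosphatase SHIP1, rose from 22.97 and 25.5 to 35.96 and 36.4 CPM. Laptm5, Cd53, Tyrobp, Ptprc, Cd44 and Cd52 were the other members called. Of 17 tested haematopoietic cytokine receptor genes 4 rose and 0 fell. They were Csf2rb (27.95 and 27.2 to 46.1 and 40.2 CPM) and Csf2rb2 (11.2 and 8.67 to 17.3 and 14.3 CPM), near-identical receptor subunits whose reads may be split between them, Tgfbr2 (128 and 133 to 150.2 and 163 CPM) and Il7r, which had 4 and 2 reads at 6 h and 19 and 30 reads at 12 h. The summed level of the pan-haematopoietic list was 1217 and 1204 CPM at 6 h and 1419.8 and 1413 CPM at 12 h. With 1 library left out in turn, 3 to 8 of the pan-haematopoietic genes were called, fewest without replicate 1 of 6 h.

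Megakaryocyte and platelet genes rose in 7 of 17 tested members (41.2%, against 4.39% of all tested genes), with 0 lower. Their median log2 fold change was 0.46. Itgb3, the integrin beta chain that pairs with CD41 on platelets, stood at 236 and 231 CPM at 6 h and 308 and 286 CPM at 12 h (0.34 ± 0.06, adjusted p = 0.00037). Rgs18, a brake on G protein signalling in platelets, stood at 1.62 and 1.04 CPM at 6 h and 4.49 and 3.57 CPM at 12 h (1.48 ± 0.30). Itga2b, whose product pairs with that of Itgb3, was not called (-0.09 ± 0.07, adjusted p = 0.51), and its hours overlapped. Gp5, Clec1b, Tubb1, Plek and Treml1 were the other members called, and Treml1 rested on 0 and 2 reads at 6 h and 11 and 16 reads at 12 h. Leave-one-out fits called 3 to 5 members of the platelet list, fewest without replicate 1 of either hour.

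Of 20 tested erythroid genes 1 was called higher (5%) and 1 lower (5%), near the 4.39% and 3.07% of all tested genes. Hbb-y, an embryonic beta globin gene, rose from 97.9 and 87.6 to 152 and 126 CPM (0.57 ± 0.08, adjusted p = 2.7e-05). Tfrc, the transferrin receptor gene, fell from 402 and 365 to 342 and 304 CPM (-0.25 ± 0.06). The other 18 were not called. The summed level of the list was 2254 and 2037 CPM at 6 h and 2918 and 1931 CPM at 12 h, so the 12 h replicates differed from each other by more than they did from the 6 h libraries. Without replicate 2 of 12 h, 9 members were called higher and 0 lower, and without each of the other libraries 1 was called higher.

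**Figure D2:**
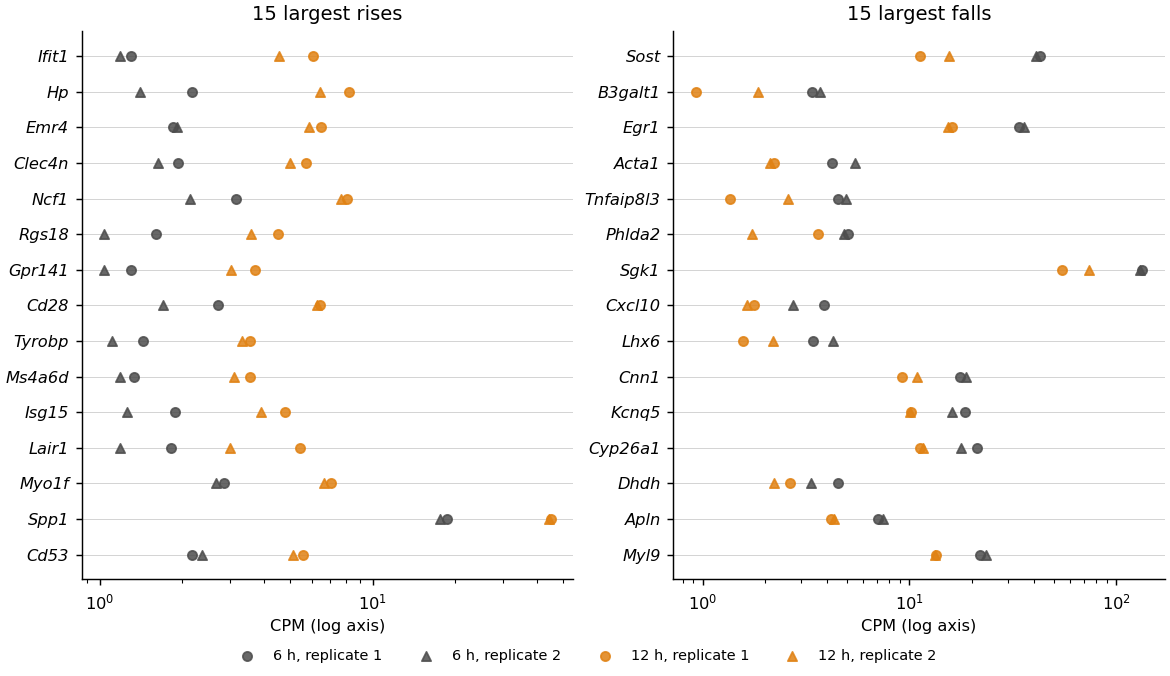
CPM in each of the 4 libraries (log axis) of the 15 largest called rises (left) and the 15 largest called falls (right), by the rule for named genes; circles are replicate 1 and triangles replicate 2, grey at 6 h and orange at 12 h. The 2 hours do not overlap in any of these genes, which the rule requires.

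The 15 largest rises with a mean level of at least 2 CPM (1 on the log2 scale) were chosen for their size, so their direction is a description. They were Ifit1, Hp, Emr4, Clec4n, Ncf1, Rgs18, Gpr141, Cd28, Tyrobp, Ms4a6d, Isg15, Lair1, Myo1f, Spp1 and Cd53. Apart from Spp1, each stood at 3.2 CPM or less at 6 h. Emr4, an adhesion receptor gene of macrophages, stood at 1.86 and 1.93 CPM at 6 h and 6.48 and 5.87 CPM at 12 h, and Clec4n, which encodes the fungal receptor dectin-2, at 1.93 and 1.63 CPM at 6 h and 5.697 and 4.996 CPM at 12 h. Cd28, a T cell costimulatory receptor gene, stood at 2.704 and 1.705 CPM at 6 h and 6.41 and 6.27 CPM at 12 h, while the T cell receptor genes Cd3e and Cd3d had too few counts to be tested. Of the 15, 12 kept their call whichever library was left out, and Cd53, Lair1 and Tyrobp did not: Cd53 and Tyrobp lost theirs without replicate 1 of 6 h (adjusted p = 0.075 and 0.053), and Lair1 without replicate 2 of 6 h or replicate 1 of 12 h (adjusted p up to 0.087).

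Of the transcription factors that define the transition, Runx1 was called higher, and Gfi1 and Gfi1b were not called. Runx1 (ENSMUSG00000022952, chromosome 16, 92601466 to 92826149, minus strand) stood at 149 and 145 CPM at 6 h and 173 and 166 CPM at 12 h, a log2 fold change of 0.20 ± 0.06 (adjusted p = 0.032). Both 12 h libraries lay above both 6 h libraries, but the call was lost whichever of the 4 libraries was left out and with limma-trend. Over the 14 alternatives its adjusted p ran from 0.016 to 0.17. Gfi1b stood at 15.2 and 17.9 CPM at 6 h and 17.8 and 16.6 CPM at 12 h (0.07 ± 0.14, adjusted p = 0.86), and its hours overlapped. Gfi1 stood at 8.81 and 10.1 CPM at 6 h and 6.69 and 6.96 CPM at 12 h (-0.44 ± 0.16, adjusted p = 0.084), lower at 12 h in both libraries but not called. Of 26 tested blood transcription factor genes 6 rose and 0 fell, with a median log2 fold change of 0.13. Cebpb, a factor of myeloid cells, rose from 16.3 and 16.97 to 26.6 and 25.98 CPM (0.66 ± 0.10, adjusted p = 5.7e-05). Ikzf1, which encodes IKAROS, rose from 42.3 and 43.3 to 57.97 and 52.3 CPM, Lyl1, a partner factor of blood stem cells, from 38.6 and 37.1 to 49.4 and 45.00 CPM, and Bcl11a, a factor of lymphoid and erythroid cells, from 2.74 and 1.705 to 4.42 and 4.81 CPM. Ikzf2 was also called. Between 2 and 4 of the factors were called in the leave-one-out fits, fewest without either library of 6 h.

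Of 22 tested RUNX1 target genes 9 rose (40.9%, against 4.39% of all tested genes) and 0 fell. Their median log2 fold change was 0.40. Among the risen targets were Csf2rb, Coro1a, Itgb3, Laptm5, Mpo, Itgam, Ikzf1 and Tubb1, genes of myeloid, platelet or lymphoid cells that are also in the lists above. The RUNX core TGTGGT, searched on both strands, was in none of the 13 tested targets that have a promoter window and in 14.6% of all tested genes with a window. Between 5 and 9 targets were called when a library was left out, fewest without replicate 2 of 6 h.

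Endothelial markers fell in part. Of 29 tested, 4 fell (13.8%, against 3.07% of all tested genes) and 1 rose (3.45%, against 4.39%). The other 24 were not called, and the median log2 fold change was -0.01. Cdh5 (ENSMUSG00000031871, chromosome 8, 104101625 to 104144502, plus strand), which encodes VE-cadherin of endothelial junctions, had a log2 fold change of -0.22 ± 0.05 (adjusted p = 0.0096), and Tek, the angiopoietin receptor gene, one of -0.34 ± 0.05 (adjusted p = 0.00012). Egfl7, a secreted factor of the vessel wall, fell from 91.4 and 85.7 to 65.2 and 60.9 CPM (-0.50 ± 0.07, adjusted p = 1.4e-05). Fli1, a transcription factor of endothelium and blood, fell from 114 and 112 to 91.9 and 98.2 CPM. Cd34, a surface marker of endothelium and progenitors, rose from 346 and 329.8 to 382 and 408 CPM. Pecam1 (-0.09 ± 0.05) and Kdr (-0.17 ± 0.05) were not called. Tek and Egfl7 were called in all 14 alternatives. The call of Cdh5 was lost in 4 of 14: with limma-trend and without either library of 6 h or replicate 1 of 12 h (adjusted p up to 0.15). Fli1 lost its call in the same 4, and Cd34 without replicate 2 of either hour. The leave-one-out fits called 2 to 5 of the endothelial markers lower and 0 or 1 higher. The summed level of the list was 5471 and 5509 CPM at 6 h and 4946 and 5452 CPM at 12 h.

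Arterial and Notch genes rose in part. Of 20 tested arterial and Notch genes 7 rose (35%) and 0 fell. Of 12 venous and lymphatic genes 1 rose (8.33%) and 1 fell (8.33%). The shares of all tested genes were 4.39% higher and 3.07% lower, and the difference between the lists was not tested. Dll4, the Notch ligand of arterial endothelium, stood at 39.7 and 41.5 CPM at 6 h and 62.7 and 59.4 CPM at 12 h (0.59 ± 0.07, adjusted p = 1.8e-06). Gja5, which encodes the arterial gap junction protein connexin 40, stood at 26.2 and 28.9 CPM at 6 h and 41.8 and 51.3 CPM at 12 h (0.79 ± 0.09, adjusted p = 1.2e-06). Cxcr4, a chemokine receptor gene of arterial tip cells, rose from 20.6 and 19.2 to 32.3 and 32.4 CPM (0.69 ± 0.10). Nrp1, a VEGF co-receptor gene, rose from 497 and 499 to 616 and 613 CPM (0.30 ± 0.05), and the Notch targets Hey1 and Heyl and the arterial ligand Efnb2 were also higher, with Hey1 at 29.6 and 28.5 CPM at 6 h and 36.7 and 40.6 CPM at 12 h. In all of them both 12 h libraries exceeded both 6 h libraries, as in every gene called higher.

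The apelin axis, which guides venous and tip cells, fell. Its receptor gene Aplnr stood at 206 and 226 CPM at 6 h and 153 and 171 CPM at 12 h (-0.40 ± 0.06, adjusted p = 4.5e-05), and the ligand gene Apln at 7.09 and 7.49 CPM at 6 h and 4.202 and 4.300 CPM at 12 h (-0.77 ± 0.17). The call of Apln was lost without replicate 1 of 6 h and without replicate 2 of 12 h (adjusted p up to 0.061). Lyve1, a hyaluronan receptor gene of lymphatic and yolk sac endothelium and of some macrophages, rose from 26.4 and 26.6 to 40.2 and 36.8 CPM (0.53 ± 0.09). Among 18 VEGF and angiogenic signalling genes 3 rose (Dll4, Nrp1 and Vegfc) and 4 fell (Aplnr, Tek, Apln and Vegfa). These were 16.7% and 22.2% of the list, against 4.39% and 3.07% of all tested genes. Fewer arterial and Notch genes were called higher whichever library was left out, and 4 were with limma-trend. Without replicate 1 of 6 h that list also held a lower call.

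Genes that respond to serum, flow and stretch fell in part. Of 28 tested immediate early and KLF genes 7 fell and 1 rose, with a median log2 fold change of -0.16. Egr1 (ENSMUSG00000038418, chromosome 18, 34859823 to 34864984, plus strand), an early transcription factor of growth factor signalling, stood at 33.99 and 35.8 CPM at 6 h and 16.2 and 15.4 CPM at 12 h, a log2 fold change of -1.15 ± 0.11 (adjusted p = 7.1e-08). Klf2, the factor that shear stress induces in endothelium, stood at 67.3 and 72.04 CPM at 6 h and 41.02 and 44.9 CPM at 12 h (-0.68 ± 0.08, adjusted p = 1.8e-06). The phosphatase genes Dusp1 (65.98 and 67.96 to 47.00 and 48.6 CPM) and Dusp6 (120.1 and 122 to 87.4 and 94.96 CPM), which switch off MAP kinases, fell too, as did Klf6, Fos and Jun. Jund was the member called higher (148 and 148 to 173 and 167 CPM), a call lost in 6 of 14 alternatives. When a library was left out, 5 or 6 members were called lower.

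Genes of the TGF-beta and BMP response also fell in part. Cyr61 and Ctgf, matricellular genes of that list, stood at 321 and 331 CPM at 6 h and 231 and 235 CPM at 12 h and at 469 and 472 CPM at 6 h and 339 and 369 CPM at 12 h. Their log2 fold changes were -0.48 ± 0.06 (adjusted p = 1.2e-06) and -0.41 ± 0.05 (adjusted p = 3.1e-06). Of 18 tested TGF-beta and BMP response genes 6 were lower, among them Id1, Id3 and Smad6, targets of BMP signalling. Tgfbi (48.4 and 53.7 to 83.2 and 71.1 CPM) and Tgfb1 (135 and 138 to 173 and 169 CPM) were higher. Without replicate 2 of 6 h or replicate 1 of 12 h, 2 members of the list were called lower.

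Some genes of the contractile machinery fell and some collagen genes rose. Cnn1, which encodes calponin, stood at 17.6 and 18.8 CPM at 6 h and 9.26 and 10.8 CPM at 12 h (-0.83 ± 0.13, adjusted p = 0.00011), and Myl9, a myosin light chain gene of smooth muscle, at 22.1 and 23.5 CPM at 6 h and 13.5 and 13.4 CPM at 12 h (-0.76 ± 0.11, adjusted p = 2.9e-05). Actc1, the cardiac actin gene, fell from 66.96 and 64.6 to 38.3 and 41.4 CPM (-0.72 ± 0.08), and Acta1, the skeletal actin gene, from 4.21 and 5.48 to 2.208 and 2.12 CPM (-1.14 ± 0.27). Tagln, which encodes transgelin, fell from 1043 and 995 to 784 and 818 CPM, a call lost without replicate 1 of 6 h, with DESeq2 and with limma-trend (adjusted p up to 0.15). The call of Acta1 was lost without replicate 2 of either hour and with limma-trend. Actc1 was the member of the cardiac list that fell. Of its 18 tested members 2 rose, Hand1 and Mef2c (11.1%, against 4.39% of all tested genes), and 1 fell (5.56%, against 3.07%). The median log2 fold change of the list was -0.0033. The call of Hand1 was lost in 3 of 14 alternatives and that of Mef2c in 5.

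Promoters of contractile genes often hold a CArG box, the site of the serum response factor. A box was found on either strand in the window of 2 of the 13 largest falls that have one (Acta1 and Myl9) against 1.63% of all tested genes with a window. It was found in 2 of the 15 cardiac genes with a window, Actc1 and Myl7, of which Myl7 was not called. It was found in 0 of the 11 smooth muscle and mesenchyme genes and in 0 of the 6 fallen immediate early and KLF genes with a window. Of all 20 tested immediate early and KLF genes with a window 3 held it, Egr2, Dusp5 and Zfp36, which were not called. The stretches with the box in capitals, read from RefSeq on GRCm38.p6, are shown for the 3 actin and myosin genes that fell and hold it.
Acta1 (chr8:123894799-123894888, minus strand): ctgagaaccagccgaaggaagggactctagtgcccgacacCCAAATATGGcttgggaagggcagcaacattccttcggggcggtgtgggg
Actc1 (chr2:114052876-114052962, minus strand): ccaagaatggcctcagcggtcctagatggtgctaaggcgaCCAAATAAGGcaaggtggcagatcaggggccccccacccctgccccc
Myl9 (chr2:156775263-156775352, plus strand): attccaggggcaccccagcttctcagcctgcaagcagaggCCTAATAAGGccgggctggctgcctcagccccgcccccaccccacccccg

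Of 19 tested smooth muscle and mesenchyme genes 5 rose and 2 fell, the latter being Cnn1 and Tagln. Col1a1 (ENSMUSG00000001506, chromosome 11, 94936224 to 94953042, plus strand) and Col1a2, the chains of type I collagen, stood at 1179.7 and 1262 CPM at 6 h and 1705 and 1662 CPM at 12 h and at 299 and 303 CPM at 6 h and 406 and 371 CPM at 12 h. Their log2 fold changes were 0.46 ± 0.05 (adjusted p = 5.7e-07) and 0.37 ± 0.06 (adjusted p = 6.2e-05). Postn, a matrix protein gene of mesenchyme, rose from 279 and 274 to 452 and 368 CPM (0.56 ± 0.07), and Snai2, a factor of the epithelial-to-mesenchymal transition, from 31.6 and 29.2 to 48.6 and 43.7 CPM (0.58 ± 0.08). Pdgfrb was also called. Of 20 collagen, laminin and basement membrane genes 5 rose and 0 fell, among them Col5a1 (724 and 777 to 883 and 874 CPM), Col15a1 (2.63 and 3.48 to 6.196 and 5.06 CPM) and Nid2. The summed level of the smooth muscle and mesenchyme list was 7962 and 8254 CPM at 6 h and 8454 and 8694 CPM at 12 h. Without replicate 1 of 6 h, 2 of the collagen and basement membrane genes were called.

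**Figure D3:**
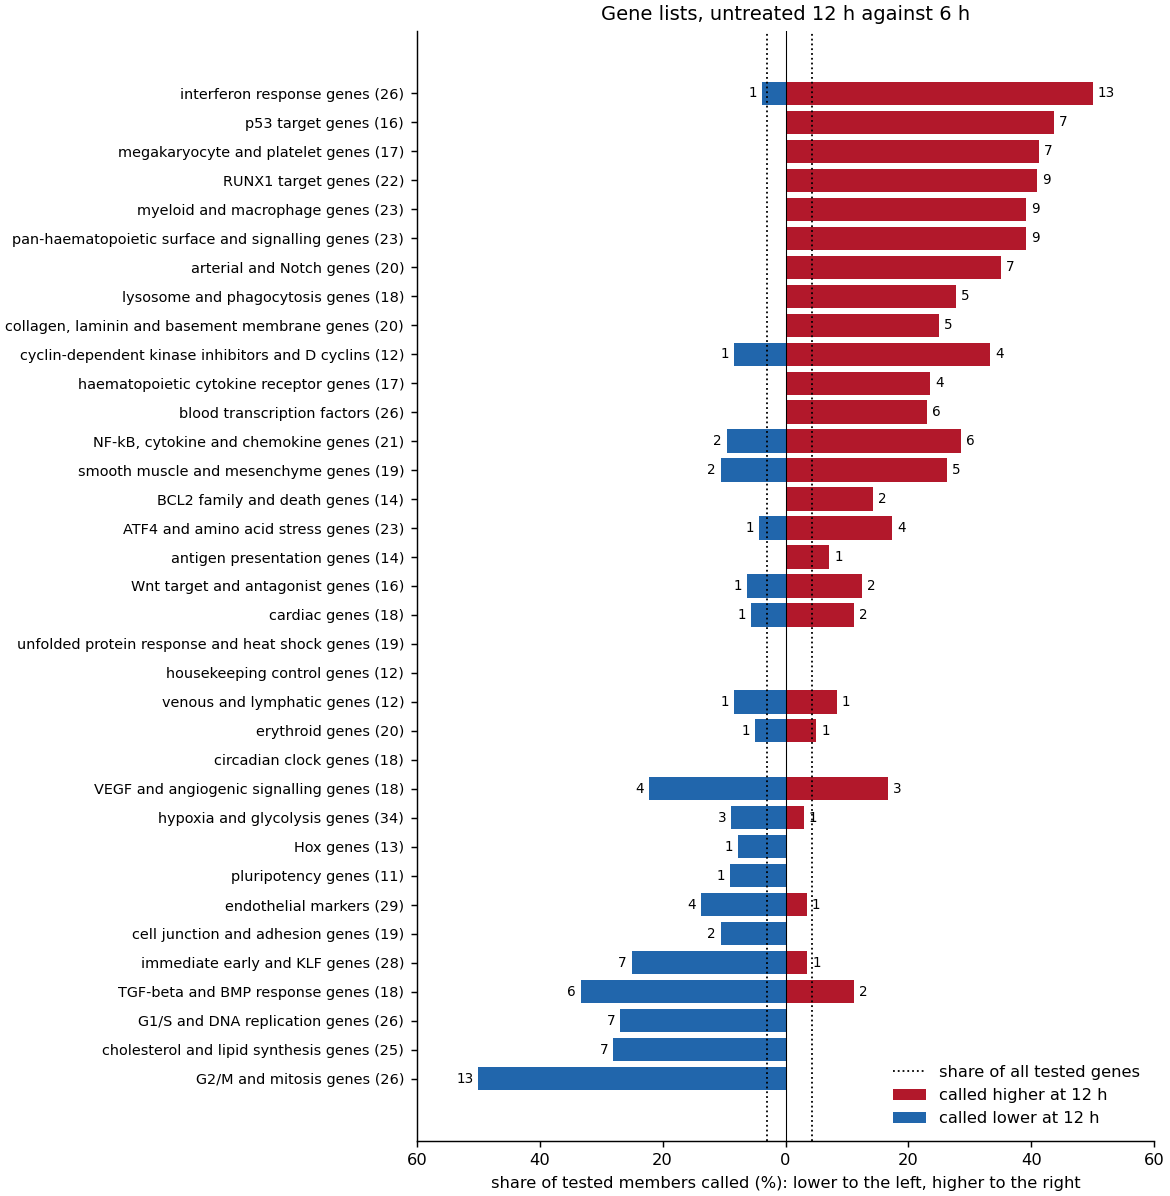
Share of the tested members of each gene list called higher (red, to the right) or lower (blue, to the left) at 12 h, for the lists with at least 10 tested members (number in brackets); figures beside the bars are numbers of genes and dotted lines the shares among all tested genes (4.39% higher and 3.07% lower). The interferon, myeloid, pan-haematopoietic, platelet and arterial lists extend to the right and cell cycle, cholesterol and immediate early lists to the left.

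Many genes of the cell cycle fell by a small amount. Of 26 tested G2/M and mitosis genes 13 fell and 0 rose, and of 26 G1/S and DNA replication genes 7 fell and 0 rose, both lists with a median log2 fold change of -0.18. Hmmr, a spindle protein gene, stood at 142 and 140.3 CPM at 6 h and 116 and 114 CPM at 12 h (-0.29 ± 0.06, adjusted p = 0.0019), and Mcm5, a subunit of the replicative helicase, at 189 and 194 CPM at 6 h and 162 and 156 CPM at 12 h (-0.27 ± 0.05, adjusted p = 0.0014). Ccna2, which encodes cyclin A2, fell from 216 and 223 to 178 and 192 CPM, Cdc20, an activator of the anaphase ligase, from 108 and 115 to 93.9 and 94.7 CPM, and Rrm2, which supplies deoxynucleotides, from 176 and 178 to 141 and 152 CPM. The calls are near the threshold: with 1 library left out in turn, 1 to 5 of the G2/M genes were called, fewest without replicate 1 of 12 h, and 3 to 5 of the G1/S genes.

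The promoters of mitotic genes are known for a cell cycle homology region (CHR) near the start. Its letters TTTGAA, on either strand, were in 7 of the 10 fallen G2/M genes with a window, in 15 of the 22 tested members with one and in 14.2% of all tested genes with one. CCAAT, on either strand, was in 9 of those 10 and in 42.7% of all tested genes with a window. The stretches before the start of 3 fallen members are shown with the CHR letters nearest the start in capitals.
Cdc20 (chr4:118437344-118437401, minus strand): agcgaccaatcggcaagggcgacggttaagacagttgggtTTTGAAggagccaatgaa
Cdk1 (chr10:69352913-69352967, minus strand): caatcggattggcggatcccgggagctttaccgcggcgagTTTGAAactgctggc
Kif11 (chr19:37376323-37376381, plus strand): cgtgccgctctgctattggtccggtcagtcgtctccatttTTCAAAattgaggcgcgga

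Of 12 tested inhibitors of cyclin-dependent kinases, related brakes and D cyclins 4 rose and 1 fell. Cdkn1c, which encodes the inhibitor p57, stood at 136 and 131 CPM at 6 h and 202 and 189 CPM at 12 h (0.55 ± 0.05, adjusted p = 7.1e-08), and Cdkn1a, which encodes p21, at 207 and 207 CPM at 6 h and 251 and 292 CPM at 12 h (0.40 ± 0.06, adjusted p = 6.1e-05). Btg2, an antiproliferative gene, was also called higher. Of the D cyclins, which drive entry into the cycle, Ccnd2 rose from 607 and 606 to 789.9 and 846 CPM (0.43 ± 0.05) and Ccnd1 fell from 209 and 221 to 154 and 182 CPM (-0.34 ± 0.06). Of 16 tested p53 target genes 7 rose and 0 fell: Cdkn1a, Perp, Ccng1, Trp53inp1, Sesn2, Pmaip1 and Zmat3, with a median log2 fold change of 0.20. Perp, a membrane protein of p53-dependent death, rose from 63.6 and 57.6 to 77.4 and 84.2 CPM, and Ccng1, which encodes cyclin G1, from 981 and 905 to 1096 and 1184 CPM. Without replicate 2 of 12 h, 3 of the p53 targets were called.

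Genes of cholesterol synthesis fell in part. Of 25 tested cholesterol and lipid synthesis genes 7 fell and 0 rose, with a median log2 fold change of -0.13. Acat2, a thiolase gene of the start of the pathway, fell from 170.0 and 167 to 140.4 and 142 CPM (-0.26 ± 0.06, adjusted p = 0.0049). Msmo1, Nsdhl, Lss, Cyp51 and Fasn were also among the members that fell. Abca1, the cholesterol exporter that LXR induces, rose from 11.1 and 10.97 to 17.5 and 17.9 CPM (0.68 ± 0.10, adjusted p = 2.4e-05). In the leave-one-out fits 2 or 3 of the cholesterol genes were called.

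Of 34 tested hypoxia and glycolysis genes 1 was called higher (2.94%) and 3 lower (8.82%), against 4.39% and 3.07% of all tested genes. Ddit4, an inhibitor of mTOR, rose from 57.7 and 58.8 to 92.7 and 80.1 CPM (0.56 ± 0.07) and Vegfa, Slc2a3 and Ldha fell. The lactate exporter gene Slc16a3 stood at 83.7 and 86.7 CPM at 6 h and 92.01 and 49.4 CPM at 12 h and the adenylate kinase gene Ak4 at 12.01 and 13.1 CPM at 6 h and 14.03 and 6.66 CPM at 12 h, and neither was called. In both, replicate 1 of 12 h lay above both 6 h libraries and replicate 2 below. The fall of Ldha (679 and 679.7 to 626 and 559 CPM) was called in 6 of 14 alternatives, that of Slc2a3 in 9 and that of Vegfa in 12. With 1 library left out in turn, 0 to 5 members were called lower, 0 without replicate 2 of 6 h and 5 without replicate 1 of 12 h.

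Sost had the largest fall among genes with a mean level of at least 2 CPM, and neither it nor Sgk1 is in any of the lists. Sost (ENSMUSG00000001494, chromosome 11, 101962458 to 101967015, minus strand), which encodes the Wnt and BMP antagonist sclerostin, stood at 42.6 and 41.1 CPM at 6 h and 11.3 and 15.6 CPM at 12 h, a log2 fold change of -1.59 ± 0.12 (adjusted p = 1.9e-10). Sgk1, a kinase gene that serum and glucocorticoids induce, stood at 134 and 131 CPM at 6 h and 55.1 and 73.8 CPM at 12 h (-1.01 ± 0.08, adjusted p = 6e-10). Cyp26a1, which degrades retinoic acid, stood at 21.2 and 17.8 CPM at 6 h and 11.3 and 11.6 CPM at 12 h (-0.78 ± 0.12), and the potassium channel gene Kcnq5 at 18.5 and 16.01 CPM at 6 h and 10.2 and 10.02 CPM at 12 h (-0.79 ± 0.12). The other members of the 15 largest falls were Egr1, Cnn1, Myl9, Acta1, Apln, Cxcl10, B3galt1, Tnfaip8l3, Phlda2, Lhx6 and Dhdh. Of the 15, 7 kept their call whichever library was left out (Sost, Egr1, Sgk1, Cnn1, Kcnq5, Cyp26a1 and Myl9), and they include every fall of the 15 that stood above 10 CPM at 6 h.

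The same interval with Dox was measured in other libraries. From 6 to 12 h with Dox, 2906 genes were called (18.9%), 1356 higher (8.84%) and 1550 lower (10.1%). Of the 674 genes higher without Dox, 418 (62.0%) were also called higher with Dox, 6 were called lower and 250 were not called. Of the 471 lower genes, 297 (63.1%) were also called lower with Dox, 2 were called higher and 172 were not called. In the other direction, 30.8% of the genes higher with Dox and 19.2% of those lower with Dox were called the same way without it. The falls of Sost (-1.40 ± 0.11 with Dox), Sgk1 (-1.22 ± 0.08), Klf2 (-0.69 ± 0.08) and Cnn1 (-1.25 ± 0.13) and the rises of Dll4 (0.65 ± 0.07), Gja5 (1.25 ± 0.09) and Col1a1 (0.54 ± 0.05) were called in both courses.

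The change itself differed between the courses in 64 genes (0.417%), 34 more positive and 30 more negative without Dox. At an unadjusted p under 0.05 there were 1563. Plek, which rose without Dox, stood at 104 and 90.9 CPM at 6 h and 99.6 and 88.6 CPM at 12 h with Dox, and the difference of its log2 fold changes was 0.85 ± 0.09 (adjusted p = 2.9e-06). Spp1 stood at 15.5 and 15.8 CPM at 6 h and 17.6 and 16.6 CPM at 12 h with Dox, a difference of 1.15 ± 0.12 (adjusted p = 2.9e-06). Both differences were called in all 12 alternatives in which they could be computed. Ccl9 (0.90 ± 0.17), Clec4n (2.08 ± 0.41), Emr4 (1.58 ± 0.37), Lilrb4 (0.92 ± 0.22), Rsad2 (0.83 ± 0.19) and Lyve1 (0.74 ± 0.14) also rose more without Dox. Of these, Emr4 and Lilrb4 lost the call in 9 of 11 alternatives, Rsad2 in 6 of 11, Ccl9 in 3 of 12 and Clec4n and Lyve1 in 2 of 11.

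Gfi1b was the reverse case. It overlapped between the hours without Dox and stood at 5.06 and 7.13 CPM at 6 h and 18.4 and 12.8 CPM at 12 h with Dox, a difference of -1.28 ± 0.21 (adjusted p = 0.0026). Rac2 (-1.71 ± 0.34), Ak4 (-1.63 ± 0.29), Slc16a3 (-1.37 ± 0.27), Aqp8 (-1.45 ± 0.28), Hbb-y (-0.86 ± 0.11) and Sox7 (-0.57 ± 0.09) were also more negative without Dox. The difference of Gfi1b was not called with limma-trend (adjusted p = 0.24). Slc16a3 lost the call in 4 of 12 alternatives, Rac2, Ak4 and Aqp8 in 3 of 11 and Hbb-y and Sox7 in 1 of 12. The number of called differences was 12 to 122 with 1 untreated library left out in turn (12 without replicate 2 of 6 h, 122 without replicate 1 of 12 h) and 4 with limma-trend.

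**Figure D4:**
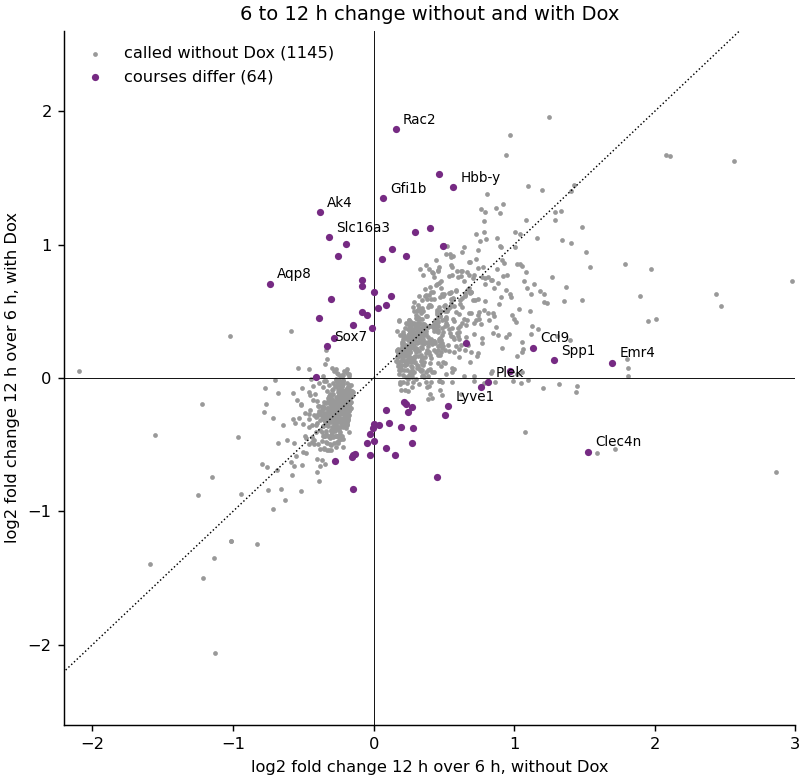
Log2 fold change from 6 to 12 h with Dox (vertical axis) against that without Dox (horizontal axis) for the 1145 genes called without Dox (grey) and the 64 genes whose change differed between the courses (purple); the dotted line marks equal change and 4 called genes lie outside the drawn range. Of the genes called without Dox, 418 of 674 higher and 297 of 471 lower were called the same way with Dox, and Clec4n, Emr4, Spp1 and Plek lie far below the line.

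Untreated cells of 24 h place these values on a longer course; that step shares the 12 h libraries, so its values are set beside those of 6 to 12 h without a comparison. From 12 to 24 h 3440 genes were called (22.4%). Ifit1 reached 35.4 and 42.1 CPM at 24 h, Isg15 23.3 and 25.3 CPM and Usp18 17.7 and 17.2 CPM. Hp reached 26.1 and 27.9 CPM, Plek 378 and 397 CPM, Spp1 111 and 119.8 CPM and Itgb3 421 and 429 CPM. Of the 26 interferon genes 25 were called higher from 12 to 24 h, with a median log2 fold change of 2.10, and of the 23 myeloid and macrophage genes 20 were called higher and 1 lower.

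Some of the genes named did not go on in the same direction. Dll4 stood at 39.8 and 38.1 CPM at 24 h, a log2 fold change of -0.65 from 12 h, which is close to its 6 h level. Egr1 stood at 25.7 and 21.2 CPM and Cxcl10 at 4.08 and 4.28 CPM, both above their 12 h libraries. Klf2 (41.8 and 37.3 CPM) was not called from 12 to 24 h. Runx1 rose further, to 210.3 and 203 CPM, and Tek fell further, to 167 and 170.0 CPM. Cdh5 stood at 516 and 504 CPM and was not called from 12 to 24 h.

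**Figure D5:**
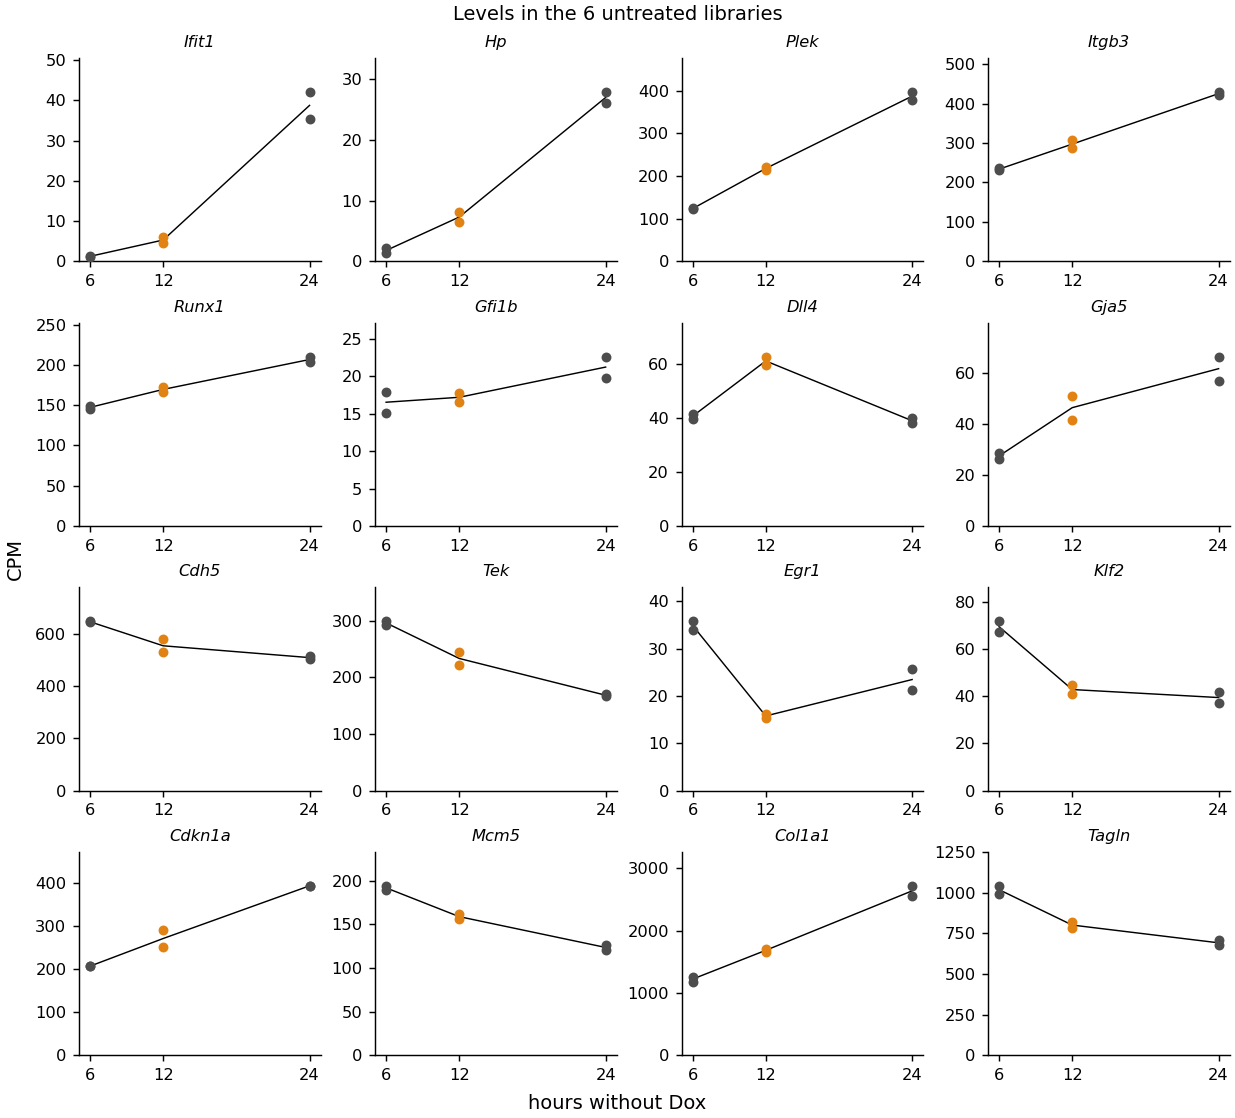
CPM of 16 genes in the 6 untreated libraries (vertical axes from 0) at 6, 12 and 24 h (horizontal axes); points are libraries, orange at 12 h, and the line joins the means of 2 libraries. Ifit1 and Hp are far higher at 24 h than at 12 h, while Dll4 is highest at 12 h and Egr1 lowest.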

How the data were processed

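RNA was sequenced as single reads of 75 bases from strand-specific libraries made from 200 ng of total RNA with 14 cycles of amplification, per the labels' protocols. The authors deposited raw counts of reads for each gene and RPKM values of the same genes and libraries. The build was GRCm38, and edgeR 3.8.5, R 3.1.0, SAMtools 0.1.19, Bowtie2 2.21 and bcl2fastq 2.16.0.10 were used, per the submitters' processing notes. Which tool counted the reads, with which strand setting and annotation, is not given in the sources used here, so overlapping and antisense genes and near-identical copies are uncertain. Counts of the 12 libraries were filtered with filterByExpr, scaled by TMM and fitted with a mean per group and no replicate block in edgeR 4.0.16 (R 4.3.3), which leaves 6 residual degrees of freedom. The SE of a log2 fold change was derived from the F statistic, as the change over the root of F. The fit was tested on counts simulated with the spread that the same model estimated, which checks the procedure and not the calls made here. The replicate libraries of each hour differed by more than counting noise (chi-square per degree of freedom 3.77 at 6 h and 4.61 at 12 h), and the biological coefficient of variation was 4.71%. CPM and intervals cover no error beyond these libraries.

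The 42 gene lists and the members described were chosen with earlier results of these data known. Named genes were Sox7, Runx1, Gfi1, Gfi1b, Cdh5 and Itga2b, the 15 largest called rises and falls that averaged 1 or more in log2 CPM, with no overlap and a proper name, up to 4 called members per list and direction by adjusted p, and 5 per direction for the difference between the courses. Other genes are named where a count or a marker check needs them, after their values were seen. Alternatives were scaling by RLE or the upper quartile, testing without a filter or with a minimum of 1 CPM in 4 libraries, a block for the replicate number, DESeq2 1.42.0, limma-trend (limma 3.58.1) on log2(RPKM + 0.1), only the 4 or 6 untreated libraries, each of the 4 libraries left out, and, added after the data were seen, the depth class as a block. Promoter windows come from RefSeq and were matched by symbol. Some of the genes that the rule names are not reported here.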

Additional observations from a re-analysis of the deposited data

Results flagged for a closer look

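The change from 6 to 12 h differed between untreated and Dox-treated cells for 15 of the named genes, by the test of the difference in edgeR's quasi-likelihood fit with Benjamini-Hochberg adjustment. The values are log2 fold changes without Dox minus those with Dox. More positive without Dox were Clec4n (2.08), Emr4 (1.58), Spp1 (1.15), Lilrb4 (0.921), Ccl9 (0.904), Plek (0.847), Rsad2 (0.829) and Lyve1 (0.742). More negative without Dox were Rac2 (-1.71), Ak4 (-1.63), Aqp8 (-1.45), Slc16a3 (-1.37), Gfi1b (-1.28), Hbb-y (-0.862) and Sox7 (-0.574). Slc16a3 and Ak4 also differed between the 12 h replicates without Dox, and the part of that spread in their values was not tested. Counts of Sox7 with Dox include transcripts of the transgene.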

How the results depend on the processing

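The count of genes called from 6 to 12 h without Dox was 1145 (674 higher, 471 lower) and stayed within 1.5 times of that when libraries were scaled by RLE (1146) or the upper quartile (1107), with no filter (1193) or a stricter one (1179), and with DESeq2 (904), only the 4 (1056) or 6 (1325) untreated libraries and the depth class as a block (1120). With limma-trend on RPKM it was 531 (351 higher, 180 lower). With 1 of the 4 libraries left out in turn it was 395 to 699 (250 to 427 higher, 145 to 279 lower), where the hour with 1 library is assumed to vary like the other groups. With the replicate block it was 1141. Replicate numbers showed no clear pairing of the samples: the correlation of the deviations of same-numbered libraries of 6 and 12 h was 0.035. Only 2 pairs of libraries exist, and replicate 1 was the deep library at 6 h and the shallow one at 12 h. The correlation therefore cannot tell whether the numbers pair the samples. The difference between the courses was called for 64 genes (34 more positive, 30 more negative), for 255 without a filter (164 and 91), for 4 with limma-trend (2 and 2) and for 43 with DESeq2 (24 and 19). With 1 untreated library left out in turn it was 12 to 122 (4 to 55 more positive, 8 to 75 more negative). The count for the Dox course was 1729 with limma-trend and that from 12 to 24 h 2242 to 3380 with 1 of the 4 libraries left out. Of genes not called, Ak4 had log2 fold changes of -0.90 to 0.17 over the fits that left out 1 library, Slc16a3 of -0.79 to 0.11, Gfi1b of -0.067 to 0.17 and Rac2 of -0.25 to 0.46; Ak4 and Slc16a3 turned positive without replicate 2 of 12 h, and Gfi1b and Rac2 negative without replicate 1 of 6 h. Of the 141 called named genes, 73 lost their call in at least 1 of the 14 alternatives. The cause of these shifts was not tested.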

Other observations

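Several groups showed no called change from 6 to 12 h without Dox. None of 19 unfolded protein response and heat shock genes, 18 circadian clock genes and 12 housekeeping genes was called by edgeR's quasi-likelihood test, against 7.46% of all tested genes. At an unadjusted p under 0.05 there were 5, 1 and 1 in these lists, against 3139 of all 15347 tested genes. Each list is too small by itself to tell 0 calls from the 7.46% of all tested genes. DESeq2 and limma-trend called 0 in each list. With no filter on low counts 1 unfolded protein response gene was called higher and 1 housekeeping gene lower, and with the stricter filter 1 unfolded protein response gene was called higher. Of 13 Hox genes 1 was lower, Hoxb2, and of 7 mitochondrially encoded genes 1 was lower, mt-Nd1, against 3.07% of all tested genes. The call of Hoxb2 was lost in 5 of 14 alternatives and that of mt-Nd1 in 4, limma-trend among them for both. Of 11 pluripotency genes Lin28a, an RNA-binding protein gene of embryonic cells, was the only one called, with 413 and 429 CPM at 6 h and 322 and 364 CPM at 12 h.

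Among long intergenic noncoding RNA genes 9 of 253 tested (3.56%) were called, 6 higher and 3 lower, against 8.30% of protein-coding genes. The levels of these classes were not compared, and the part of count level in the shares was not tested. The 5330426P16Rik transcript stood at 66.4 and 61.4 CPM at 6 h and 95.9 and 93.6 CPM at 12 h, a log2 fold change of 0.56 ± 0.06. Snhg1, a host gene of small nucleolar RNAs, stood at 23.4 and 18.97 CPM at 6 h and 17.7 and 14.3 CPM at 12 h.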
